A study of Mus musculus with 12 samples.

Results

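The genes described here encode the actins, tropomyosins and pointed-end proteins that build the thin filament and its non-muscle counterpart. They were chosen by gene symbol and not by a measured value: the striated muscle actins Acta1 and Actc1, the cytoplasmic actins Actb and Actg1, the tropomyosins Tpm1, Tpm2, Tpm3 and Tpm4, and the filament pointed-end proteins Tmod1 and Lmod2. All 10 were found among the 16288 genes listed in at least 1 library, and all 10 passed the filter on low counts that left 12545 genes to test.

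RNA was sequenced from C2C12 cells, an immortalized mouse myoblast line that fuses into myotubes when serum is withdrawn. Proliferating cells (GM) were kept in 10% fetal bovine serum, and differentiating cells were harvested 24 h (DM 24h) or 48 h (DM 48h) after a change to 2% horse serum with 2 ug/ml insulin. At each stage cells received either DMSO, the vehicle, or 50 uM PFI-3, a compound known to bind the bromodomains of the SWI/SNF chromatin remodelling proteins. Treatment began 12 h before harvest of GM cells and was also given for 12 h ahead of differentiation, with renewal every 24 h in differentiation medium. All groups come from the same cell line, so cells of a living muscle were not sampled. There were 2 libraries, A and B, in each of the 6 groups, which the submitters call biological duplicates without saying how the cultures were separated, so p-values measure the spread between these libraries.

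As background, actin monomers polymerise into filaments that a coiled tropomyosin cable covers, and the gene from which each is made sets much of what the filament does. Proliferating myoblasts use the cytoplasmic actins for their cortex and stress fibres. Differentiating myotubes assemble sarcomeres from the striated muscle actins, with cardiac actin (Actc1) an early form in developing skeletal muscle and skeletal actin (Acta1) the adult form. The 4 tropomyosin genes give muscle and non-muscle proteins through alternative promoters and exons. Tropomodulins cap the slow-growing pointed end of the filament, and leiomodins promote filament assembly and elongation from that end.

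The upstream sequences of 3 actin genes are shown because each holds a CArG box, the site that serum response factor is known to bind. They are the muscle actins Acta1 and Actc1 and the cytoplasmic Actg1. A RefSeq promoter window was matched for 9 of the 10 genes: Acta1, Actc1, Actg1, Tpm1, Tpm2, Tpm3 (with 2 windows), Tpm4, Tmod1 and Lmod2. No window was matched for the cytoplasmic actin Actb, so it was not searched. The 250 bases before the start are given 5′ to 3′ on the gene's own strand, with the CArG box in capitals (GRCm38.p6, the patch release of the mm10 build). The windows are chr8:123894776-123895025 for Acta1, chr2:114052876-114053125 for Actc1 and chr11:120348496-120348745 for Actg1, and all 3 genes are on the minus strand.
Acta1: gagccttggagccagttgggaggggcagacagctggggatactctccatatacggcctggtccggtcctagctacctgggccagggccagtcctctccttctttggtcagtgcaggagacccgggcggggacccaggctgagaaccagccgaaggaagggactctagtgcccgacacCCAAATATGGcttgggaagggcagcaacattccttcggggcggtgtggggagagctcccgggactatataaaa
Actc1: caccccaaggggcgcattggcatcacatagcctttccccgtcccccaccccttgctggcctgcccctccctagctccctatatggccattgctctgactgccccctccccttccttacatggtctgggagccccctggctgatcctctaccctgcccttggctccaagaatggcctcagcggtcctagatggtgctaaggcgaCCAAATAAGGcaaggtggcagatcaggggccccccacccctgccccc
Actg1: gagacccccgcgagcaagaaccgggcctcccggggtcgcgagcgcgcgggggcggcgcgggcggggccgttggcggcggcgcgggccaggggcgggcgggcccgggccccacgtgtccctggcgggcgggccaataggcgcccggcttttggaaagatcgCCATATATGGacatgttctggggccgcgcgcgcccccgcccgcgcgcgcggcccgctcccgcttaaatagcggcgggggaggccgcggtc

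The box lay at positions -73 to -64 from the start in Acta1, at -47 to -38 in Actc1 and at -90 to -81 in Actg1. These 3 of 9 genes held it, against 1.47% of the 32851 RefSeq windows of that length searched on both strands. The E-box CANNTG was found in 6 genes and in 66.2% of all windows. The MCAT box CATTCC, read on either strand, was found in 3 genes (Acta1, Tpm1 and Tmod1) and in 12.6% of all windows, and no MEF2 site was found in the genes' windows, against 2.92% of all. A match describes letters in a window and is not a measured binding site.

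The deposited tables give an expected count per gene, an estimate of the reads that came from it, and FPKM, which divides that count by transcript length and library size and so allows levels of different genes to be compared. Library totals of expected counts ran from 12576374 to 13658352, and the 10 genes held between 1.05% and 2.05% of them. The GM libraries differed more between replicates than the others: over 10656 genes, B/A ratios on the log2 scale had an SD of 0.367 with DMSO and 0.333 with PFI-3 in GM, and between 0.144 and 0.168 in the DM groups. Library A of the GM DMSO group stands apart, with 47645 counts of the smooth muscle actin Acta2 against 18719 in library B.

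A fractional count can arise where a quantifier divides reads between genes, though the deposited headers do not say so. Actb had a fractional count in 12 of 12 libraries and Tmod1 in 11, while Acta1 and Actg1 had one in 1 library each and the other 6 genes in none. Actb counts ranged from 24570.02 to 127850.99, so rounding to whole numbers changed them little. In the GENCODE transcripts, 2.57% of the 50-base windows of Actb also occurred in another gene, most often in Actg1, and the figure was 2.00% for Acta1 and 1.90% for Actg1. No 100-base window of the 10 genes was shared. Tmod1 shared no 50-base window, so the source of its fractions is not seen in these transcripts.

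The muscle actins went from barely detected to among the most abundant mRNAs in vehicle-treated cells. Acta1 (chr8:123891758-123894775) had 6.73 and 2.92 FPKM in the GM DMSO libraries, 389 and 391 at DM 24h, then 4208 and 4092 by DM 48h. By its group mean it ranked 8347 of 16288 genes in GM and 3 at DM 48h. Actc1 (chr2:114047282-114052875) had 0.58 and 0.32 FPKM in GM, from 11 and 6 counts, then 659.6 and 653 at DM 24h, then 4120.4 and 4123 by DM 48h. Its rank went from 11203 to 4. No GM library overlapped a DM library for either gene.

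In edgeR's quasi-likelihood test, with p-values adjusted by Benjamini-Hochberg over all 12545 genes and a call at an adjusted p below 0.05, both genes rose at each step. The log2 fold change of Acta1 was 6.28 ± 0.22 (SE) from GM to DM 24h (adjusted p = 4.38e-10) and 3.47 ± 0.17 from DM 24h to DM 48h (1.38e-08). For Actc1 it was 10.44 ± 0.13 (1.82e-13) and 2.71 ± 0.07 (1.09e-10). Actc1 was therefore the higher of the pair at DM 24h, and the pair stood at like levels at DM 48h. The Acta1 step from GM depends on which GM DMSO library is used: it was 7.05 without library A and 5.76 without library B.

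**Figure D1:**
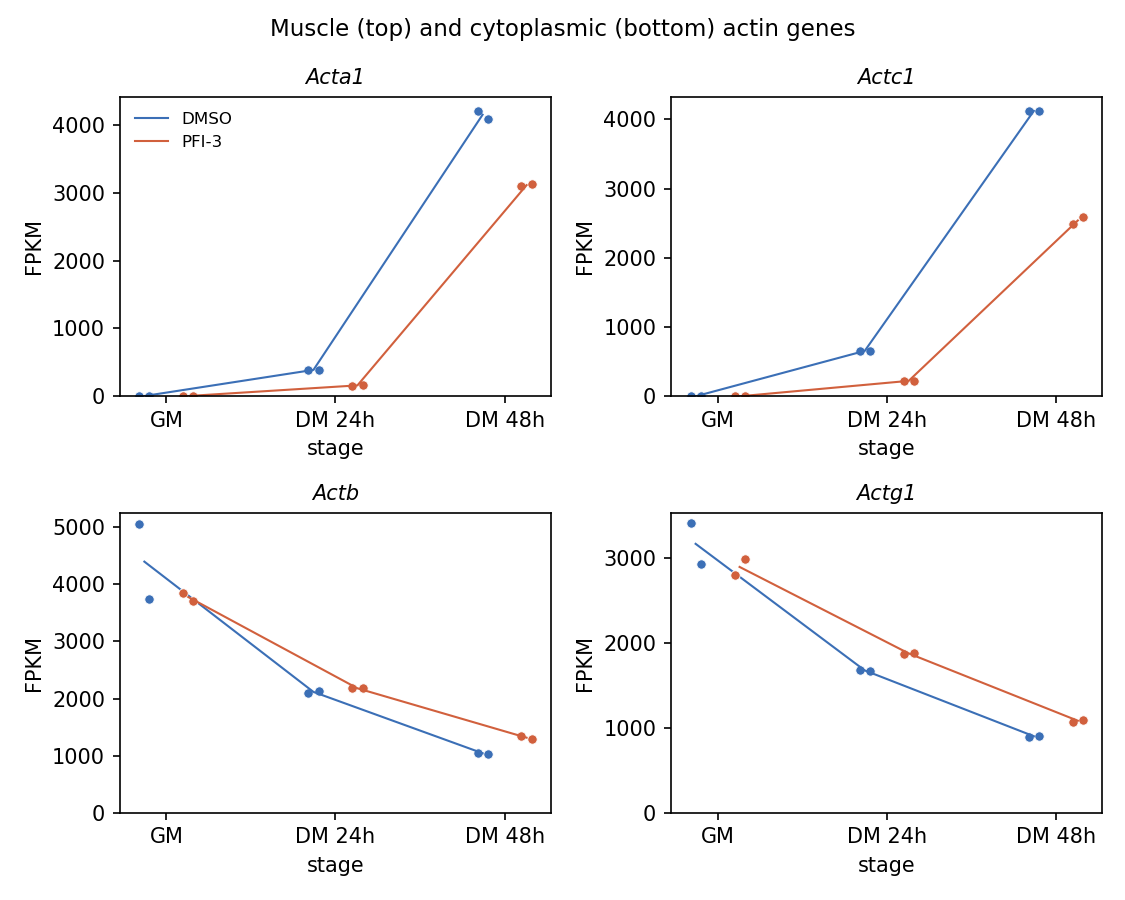
FPKM of the muscle actins Acta1 and Actc1 (top) and the cytoplasmic actins Actb and Actg1 (bottom) by stage, with linear axes that start at 0; each point is 1 library, lines join group means, blue is DMSO and orange PFI-3. The muscle actins climb steeply from DM 24h to DM 48h and lie lower with PFI-3, while the cytoplasmic actins decline and lie slightly higher with PFI-3 at DM 48h.

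The cytoplasmic actins fell over the same course. Actb (chr5:142903115-142907976), which encodes beta actin, had 5056 and 3744 FPKM in the GM DMSO libraries, 2099.7 and 2131 at DM 24h, then 1048 and 1033 by DM 48h. Actg1 (chr11:120345687-120348495), which encodes gamma actin, had 3405 and 2924, then 1679 and 1669, then 895 and 903. The stages did not overlap for either gene. The log2 fold change from GM to DM 48h was -2.08 ± 0.12 for Actb (adjusted p = 1.6e-08) and -1.81 ± 0.09 for Actg1 (2.33e-09). Both steps were called for both genes: Actb changed by -1.11 to DM 24h and a further -0.96 to DM 48h, and Actg1 by -0.97 and -0.83. Without library A of GM DMSO the change to DM 48h was -1.80 for Actb and -1.65 for Actg1, and without library B it was -2.31 and -1.95, all called. Even so, Actb still ranked 46 of all genes at DM 48h, after ranking 4 in GM.

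Summed FPKM of the 4 actin genes dipped and then overtook its starting level. The sum was 8468 and 6672 in the GM DMSO libraries, 4827 and 4844 at DM 24h, then 10271 and 10152 by DM 48h. The part of that sum from Acta1 and Actc1 was 0.0863% and 0.0486% in GM, 21.7% and 21.5% at DM 24h, then 81.1% and 80.9% by DM 48h. Counting the smooth muscle actins Acta2 and Actg2 as well, Acta1 and Actc1 made up 18.0% and 17.9% at DM 24h, then 68.4% and 68.3% by DM 48h, with Acta2 holding between 15.5% and 16.6% in the same 4 libraries. Within the striated pair, Acta1 gave 37.1% and 37.5% at DM 24h, then 50.5% and 49.8% by DM 48h. Actb kept between 53.4% and 59.8% of cytoplasmic actin in the 6 DMSO libraries. In a bulk sample a change in the proportion of fused cells and a change in RNA per cell cannot be told apart.

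**Figure D2:**
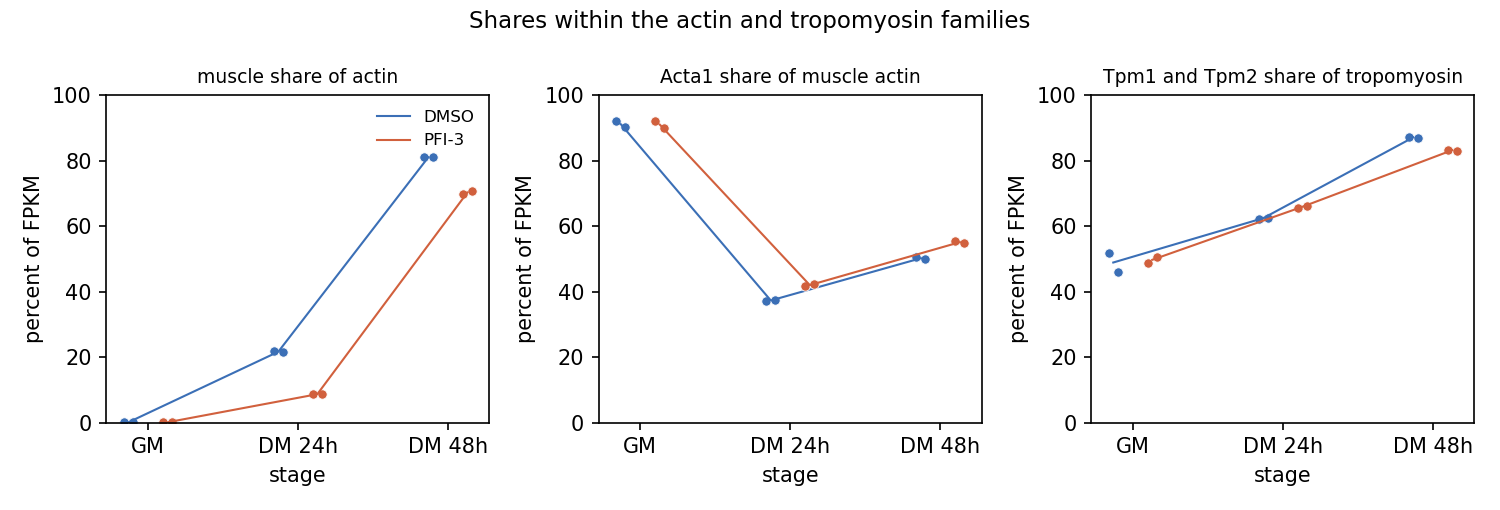
Percent of summed FPKM by stage: Acta1 and Actc1 within the 4 actins (left), Acta1 within Acta1 and Actc1 (middle), and Tpm1 and Tpm2 within the 4 tropomyosins (right); each point is 1 library, lines join group means, blue is DMSO and orange PFI-3. The muscle share of actin passes from under 0.1% to about 81% with DMSO and stays lower with PFI-3 at both DM stages.

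The tropomyosin genes split into a pair that fell, a gene that rose and a gene with no called net change from GM in the edgeR model of all 12 libraries. Tpm2 (chr4:43513726-43523583), the source of muscle beta tropomyosin, had 157.5 and 91.8 FPKM in GM with DMSO, 233 and 244 at DM 24h, then 918 and 895 by DM 48h. Its log2 fold change from GM to DM 48h was 3.11 ± 0.18 (edgeR adjusted p = 1.21e-08). Tpm3 (chr3:90072651-90100902), which encodes slow muscle and cytoskeletal forms, had 371 and 347, then 199.8 and 217, then 128 and 130.3. Tpm4 (chr8:72135288-72153142), a mainly non-muscle gene, had 659.6 and 519, then 361 and 359, then 175 and 186. Both fell at both steps, with totals of -1.51 ± 0.07 for Tpm3 (1.83e-09) and -1.70 ± 0.11 for Tpm4 (3.65e-08). Without library A of GM DMSO the 3 changes to DM 48h were 3.55 for Tpm2, -1.42 for Tpm3 and -1.48 for Tpm4, and without library B they were 2.77, -1.59 and -1.90, all called.

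Tpm1 (chr9:67022590-67049672), the gene of muscle alpha tropomyosin and of several cytoskeletal forms, had 944 and 648 FPKM in the GM DMSO libraries, 690.4 and 719.6 at DM 24h, then 1165 and 1194 by DM 48h. The groups at GM and DM 24h overlap because the GM libraries lie far apart. From DM 24h to DM 48h it rose by 0.46 ± 0.14 on the log2 scale (edgeR adjusted p = 0.0174). That call ended when any 1 of the 4 libraries compared was left out, with adjusted p up to 0.102. From GM to DM 48h the change was 0.17 ± 0.14 (adjusted p = 0.301) and was called neither way. Over 21 alternative settings that change ran from -0.11 to 0.59, and 4 of them called it higher. It was 0.51 and called higher without library A of GM DMSO (adjusted p = 9.34e-06), and -0.11 and not called without library B. Against GM, DM 24h gave -0.29 ± 0.14 (0.0884), 0.05 without library A and -0.57, called lower, without library B (3.18e-06). Tpm1 and Tpm2 together made up 51.7% and 46.1% of tropomyosin FPKM in GM, 62.2% and 62.6% at DM 24h, then 87.3% and 86.9% by DM 48h. FPKM divides by transcript length, and the Tpm1 length fell, as described below, so part of its FPKM rise and of this share comes from length. With DMSO the mean FPKM of Tpm1 was 796 in GM and 1180 at DM 48h, while its mean count was 17513 and 18433.

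**Figure D3:**
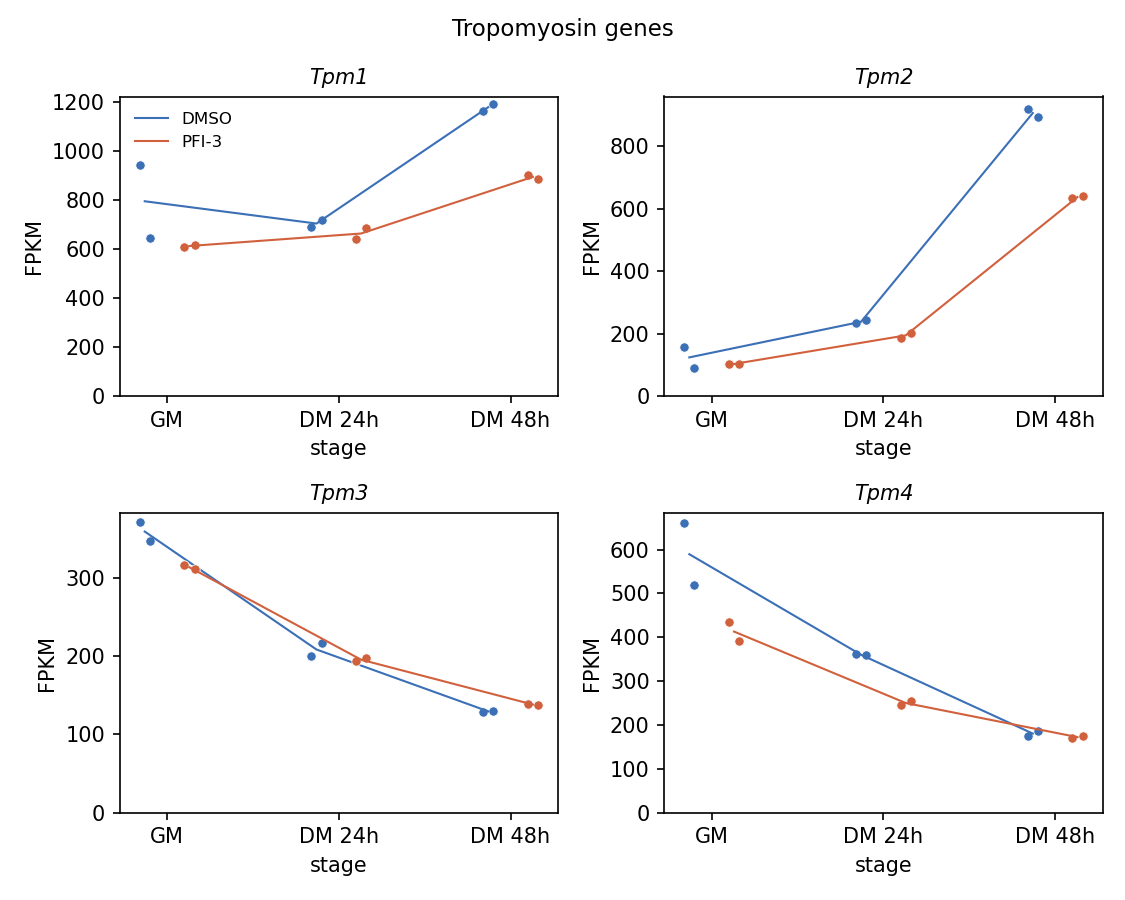
FPKM of the 4 tropomyosin genes by stage, with linear axes that start at 0; each point is 1 library, lines join group means, blue is DMSO and orange PFI-3. Tpm2 climbs with differentiation, Tpm3 and Tpm4 decline, and the widely separated GM DMSO points of Tpm1, 944 and 648, span the DM 24h values.

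Gene-level counts merge the splice forms of a tropomyosin gene, but the deposited transcript length carries a trace of them. It is a length per gene and library that did not vary for any of the 10296 genes with 1 listed transcript and varied for 5165 of the 5992 genes with several, as an average weighted by transcript abundance does. Tpm1 has 10 listed transcripts, Tpm3 has 7, Tpm2 has 3, and Tpm4 has 1 and kept a constant length. For Tpm1 the length was 1690.5 and 1690.2 bases in the GM DMSO libraries, 1621 and 1629 at DM 24h, then 1295 and 1297 by DM 48h. The mean thus changed by -23.3%, although the Tpm1 count at DM 48h did not differ from GM by the test. Of 3628 genes with several transcripts and at least 5 FPKM, 16 (0.441%) changed length by as much, and the median absolute change was 0.193%.

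Tpm2 moved the other way. Its length was 2687 and 2841 bases in the GM DMSO libraries, 3151 and 3145 at DM 24h, then 3233 and 3228 by DM 48h, a change of 16.9% from GM to DM 48h that 30 of the 3628 genes matched in size. Most of it was present at DM 24h, at 13.9%, when Tpm1 had changed by only -3.87%. Tpm3 was shorter, with a change of -3.04% at DM 48h, to 2201 and 2176 bases, a size reached by 327 genes. Of the 5 member genes with several listed transcripts (Acta1, Actg1, Tpm1, Tpm2 and Tpm3), the GM and DM 48h lengths did not overlap in 4 and the GM and DM 24h lengths in 3. Over the 3628 genes the groups did not overlap in 48.6% and 42.5%, so the size of the change and not the separation sets Tpm1 and Tpm2 apart. These lengths carry no test, and which transcripts they reflect cannot be read from the tables used here.

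**Figure D4:**
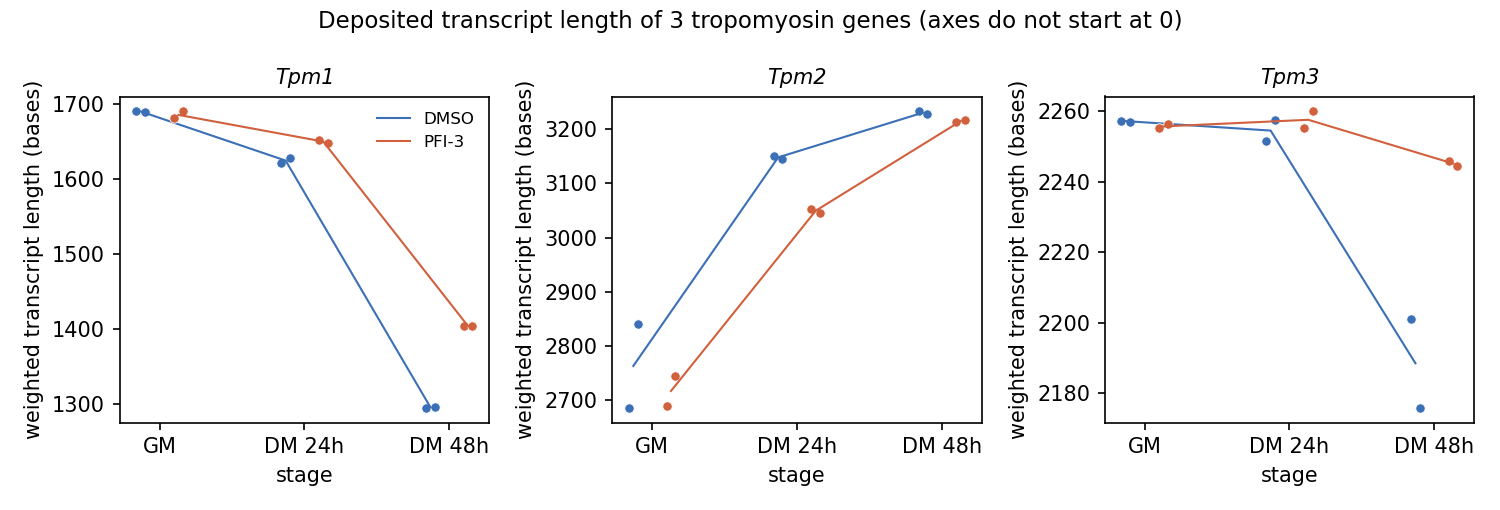
Deposited abundance-weighted transcript length in bases of Tpm1, Tpm2 and Tpm3 by stage, on axes that do not start at 0; each point is 1 library, lines join group means, blue is DMSO and orange PFI-3. Tpm1 shortens from about 1690 to 1296 bases with DMSO and to 1404 with PFI-3 at DM 48h, while Tpm2 lengthens.

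Both pointed-end genes rose. Tmod1 (chr4:46038940-46116032), which encodes the capping protein tropomodulin 1, had 7.63 and 7.65 FPKM in the GM DMSO libraries, 19.9 and 18.0 at DM 24h, then 77.1 and 78.0 by DM 48h. It rose by 1.26 ± 0.08 on the log2 scale to DM 24h (edgeR adjusted p = 5.17e-08) and by 2.10 ± 0.07 from there to DM 48h (4.61e-10). Lmod2 (chr6:24597771-24605414), which encodes the nucleator leiomodin 2, was at 0 counts in both GM DMSO libraries, 147 and 137 at DM 24h, then 1733 and 1755 by DM 48h. Against a floor of 3 counts per GM library it was at least 48.7-fold higher at DM 24h and at least 623-fold higher at DM 48h. Both genes were separated at every stage. From DM 24h to DM 48h Lmod2 rose by 3.68 ± 0.12 (adjusted p = 1.97e-09), a step close to that of Acta1.

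In the counts of called genes, DMSO cells at DM 24h had 5 of the 10 genes higher than in GM and 4 lower, with Tpm1 not called. Over all genes tested 30.6% were called higher and 30.0% lower. At DM 48h against DM 24h, 6 were higher and 4 lower, against 24.2% and 23.9% of all genes, and at DM 48h against GM 5 were higher and 4 lower, against 37.2% and 35.9%. When either GM DMSO library was left out, the direction of the change from GM turned for Tpm1 alone.

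PFI-3 left both muscle actins lower at both DM stages. Acta1 had 159 and 164 FPKM at DM 24h, against 389 and 391 with DMSO, and 3095 and 3129 at DM 48h, against 4208 and 4092. Actc1 had 223.2 and 223.5 at DM 24h, against 659.6 and 653, and 2485 and 2593 at DM 48h, against 4120.4 and 4123. No PFI-3 library reached a DMSO library of its stage. As a percent of the DMSO mean, Acta1 stood at 41.4% and then 75.0%, and Actc1 at 34.0% and then 61.6%. In GM, where DMSO gave 6.73 and 2.92 FPKM of Acta1, PFI-3 gave 5.04 and 4.75, inside the DMSO range.

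The log2 fold change with PFI-3 was -1.32 ± 0.16 for Acta1 (edgeR adjusted p = 0.000153) and -1.60 ± 0.07 for Actc1 (6.88e-08) at DM 24h. At DM 48h it was -0.50 ± 0.16 (0.0334) and -0.79 ± 0.07 (8.05e-06). The Acta1 call at DM 48h ended when any 1 of the 8 DM libraries was left out, with adjusted p up to 0.166. In GM neither gene was called, and the Acta1 value of -0.08 ± 0.27 became 0.69 and called higher without library A of GM DMSO (adjusted p = 0.0207) and -0.60 and called lower without library B (0.00497). With the reads of Acta1 and Actc1 summed, the DM 24h change was -1.49 ± 0.17, and that at DM 48h was -0.64 ± 0.16 (edgeR adjusted p = 0.0118). The second of these was not called when 1 of the 4 DM 48h libraries was left out, with adjusted p up to 0.0938.

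The cytoplasmic actins were not called with PFI-3 at any stage in the model of all 12 libraries. Actb had 2179.8 and 2178 FPKM at DM 24h against 2099.7 and 2131 with DMSO, a log2 difference of -0.01 ± 0.12 (edgeR adjusted p = 0.975). On the FPKM scale the sign turned, with 0.04 in limma on log2(FPKM + 1). At DM 48h Actb had 1340.05 and 1286 FPKM against 1048 and 1033, and Actg1 had 1070.05 and 1093 against 895 and 903. The PFI-3 libraries lie above the DMSO libraries for both. The log2 differences were 0.25 ± 0.12 (edgeR adjusted p = 0.151) and 0.18 ± 0.09 (0.146). In a fit of the 4 DM 48h libraries alone, which leaves out the wide GM spread, they were called, with adjusted p of 9.52e-06 and 0.000632.

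Acta1 and Actc1 therefore took a smaller part of the summed FPKM of the 4 actins with PFI-3 in every DM library. The part was 8.63% and 8.71% at DM 24h, against 21.7% and 21.5%, and 69.8% and 70.6% at DM 48h, against 81.1% and 80.9%. With Acta2 and Actg2 counted too, it was 7.69% and 7.74% with PFI-3 at DM 24h, against 18.0% and 17.9%, and 59.6% and 60.2% at DM 48h, against 68.4% and 68.3%. Averaged over the 3 stages the difference was -7.91 percentage points. It was -13.0 points at DM 24h and -10.8 at DM 48h. An exact two-sided permutation test within stages, whose smallest possible p is 0.00926, gave p = 0.037. After adjustment over 4 shares this was 0.0926, so it did not pass. The treatments were fully separated at both DM stages, so only the order of the GM shares, at most 0.0863%, kept p above that minimum. Over the DM stages alone the smallest possible p is 0.0556, so this test cannot decide on those stages. Acta1 held a larger part of the muscle pair with PFI-3, at 41.6% and 42.3% at DM 24h, then 55.5% and 54.7% by DM 48h. That difference averaged 3.16 points over the stages (exact p = 0.0463, adjusted 0.0926). Here too the DM libraries were fully separated, and p was set by GM shares that rest on 6 to 11 counts of Actc1. Summed FPKM of the 4 actins was 4431 and 4446 with PFI-3 at DM 24h, then 7990.1 and 8102 by DM 48h, below DMSO at both.

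Among the tropomyosins, PFI-3 gave 3 called genes in GM, 1 at DM 24h and 1 by DM 48h, all lower. Tpm4 had 435 and 391 FPKM with PFI-3 in GM, against 659.6 and 519, and 245 and 255 at DM 24h, against 361 and 359. It fell at both stages, with log2 fold changes of -0.62 ± 0.11 (edgeR adjusted p = 0.00474) and -0.58 ± 0.11 (0.00291). At DM 48h the groups lay at 169 and 175.1 against 174.9 and 186 and overlapped, with a change of -0.15 ± 0.11 that was not called. Tpm2 had 187 and 203 at DM 24h, against 233 and 244, and 635 and 640.5 at DM 48h, against 918 and 895. It fell at DM 48h (-0.60 ± 0.17, adjusted p = 0.0186), a call that ended when any 1 of the 4 DM 48h libraries was left out, with adjusted p up to 0.103. At DM 24h its change was -0.39 ± 0.17 and was not called (0.117). In fits of the 4 libraries compared, Tpm2 was called lower at DM 24h too (8e-11) and Tpm4 at DM 48h (0.00652). In the model of all 12 libraries the effect was not called different between the DM stages for Tpm2 (-0.22, 0.61) or Tpm4 (0.42, 0.102). The fit of the DM libraries alone called 8 member genes for that difference, so this outcome depends on the fit.

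Tpm1 and Tpm3 were called lower with PFI-3 in GM, where the DMSO libraries lie far apart. Tpm1 had 611 and 615 FPKM against 944 and 648 (-0.49 ± 0.14, edgeR adjusted p = 0.0443), and Tpm3 had 316 and 310.4 against 371 and 347 (-0.30 ± 0.07, 0.0186). Without library A of GM DMSO the values were -0.14 for Tpm1 (0.183) and -0.21 for Tpm3 (0.0609), and neither was called. Tpm4 was still called then, at -0.39 (0.00383). The Tpm1 call ended in 11 of the 12 refits that left out 1 library, the exception being library B of GM DMSO. In the fit of the 4 GM libraries alone no member gene was called, and Tpm4 had an adjusted p of 0.246. At DM 48h Tpm1 had 904 and 886 FPKM against 1165 and 1194, groups that do not overlap. Its deposited length was 8.34% greater with PFI-3 there, so part of this FPKM difference comes from length. The mean count of Tpm1 was 14937.5 with PFI-3 and 18433 with DMSO. Its change of -0.36 ± 0.14 (0.0752) was called in the fit of the 4 DM 48h libraries (1.03e-08), without library A (0.00011) or library B (0.000115) of GM DMSO, in DESeq2 (0.0312) and in limma on log2(FPKM + 1) (0.041).

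The part of tropomyosin FPKM from Tpm1 and Tpm2 was higher with PFI-3 at DM 24h and lower at DM 48h. With PFI-3 it was 65.5% and 66.3% at DM 24h, against 62.2% and 62.6% with DMSO, a difference of 3.45 points. At DM 48h it was 83.3% and 83.0%, against 87.3% and 86.9%, a difference of -3.91 points. The Tpm1 length was 8.34% greater with PFI-3 at DM 48h, so part of that difference comes from length. The libraries did not overlap at either stage. Averaged over the 3 stages the difference was 0.125 points (exact permutation p = 0.926), a mean in which the opposite differences cancel, and the difference at a single stage was not tested.

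The Tpm1 length also stood between the DMSO stages in PFI-3 cells. It was 1652 and 1649 bases at DM 24h, against 1621 and 1629 with DMSO, and 1404 and 1404 at DM 48h, against 1295 and 1297. The change with PFI-3 was 1.56% and then 8.34%, and 18 of the 3628 genes (0.496%) changed by as much at DM 48h, with a median of 0.114%. The mean length of Tpm3 was also greater with PFI-3 at DM 48h, at 2246 and 2245 bases against 2201 and 2176, a change of 2.59% that 149 genes matched. Tpm2 was 3054 and 3046 bases at DM 24h against 3151 and 3145, a change of -3.12%, and 3213 and 3217 at DM 48h against 3233 and 3228. PFI-3 and DMSO lengths did not overlap in 1 of the 5 genes in GM, in 3 at DM 24h and in 4 by DM 48h, against 33.0%, 35.9% and 34.9% of the 3628 genes.

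Both pointed-end genes were lower with PFI-3 at both DM stages. Tmod1 had 13.3 and 13.6 FPKM at DM 24h, against 19.9 and 18.0, and 48.1 and 46.6 at DM 48h, against 77.1 and 78.0. The log2 fold changes were -0.55 ± 0.07 (edgeR adjusted p = 0.00027) and -0.80 ± 0.07 (4.51e-06). Lmod2 had 39 and 58 counts at DM 24h, against 147 and 137, and 749 and 828 at DM 48h, against 1733 and 1755. Its log2 fold changes were -1.59 ± 0.18 (0.000108) and -1.21 ± 0.10 (1.28e-05), a fall to 34.4% and 46.1% of the DMSO mean in FPKM. These 4 calls were kept in all 12 refits that left out 1 library. In GM, Tmod1 was not called (7.43 and 7.53 FPKM against 7.63 and 7.65), and Lmod2 was at 0 and 1 counts, under the floor, so no fold is given.

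**Figure D5:**
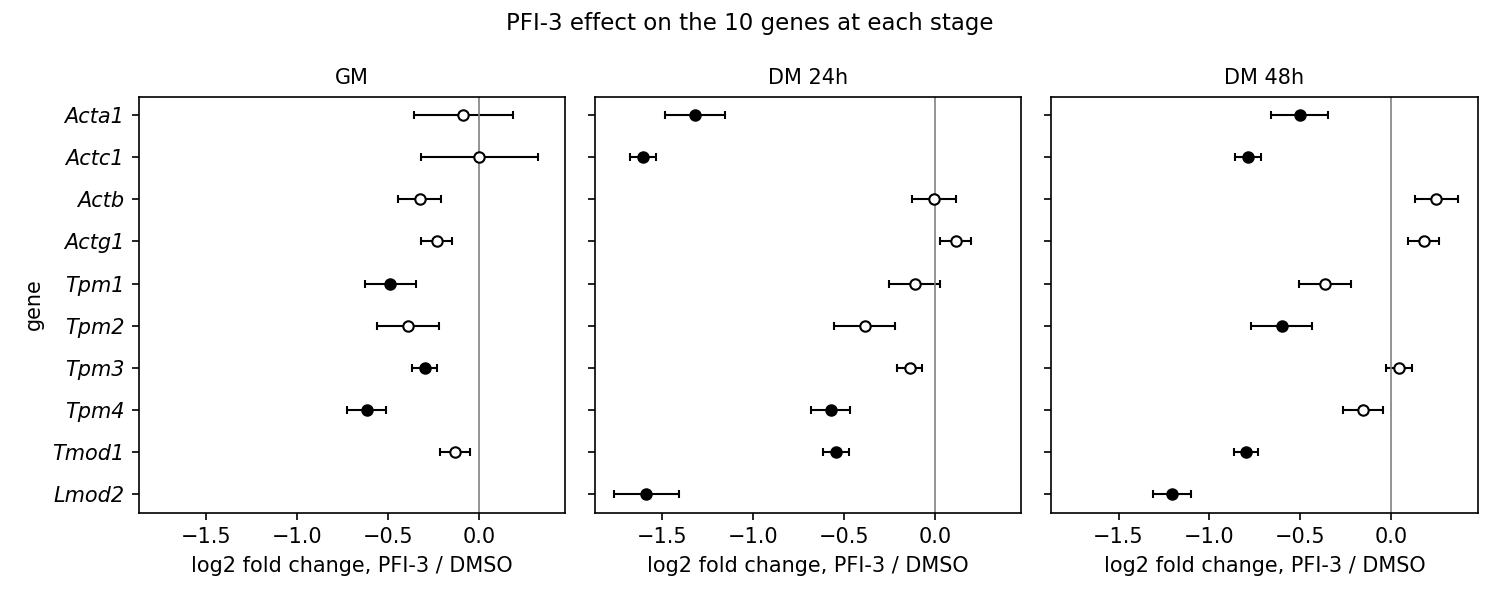
Log2 fold change of PFI-3 against DMSO for the 10 genes at each stage, with bars of 1 SE from the edgeR model of 12 libraries; filled points have an adjusted p below 0.05, and Lmod2 in GM is not drawn. The muscle actins and pointed-end genes sit left of 0 at both DM stages, and Actb and Actg1 sit to the right of 0 at DM 48h without passing the test.

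No member gene was called higher with PFI-3 at any stage. In GM 3 were lower (Tpm1, Tpm3 and Tpm4), at DM 24h 5 (Acta1, Actc1, Tpm4, Tmod1 and Lmod2) and at DM 48h 5 (Acta1, Actc1, Tpm2, Tmod1 and Lmod2). The share of all genes called lower was 6.15%, 11.4% and 14.0%, and that called higher 5.46%, 12.2% and 13.4%. In fits of the 4 libraries compared, 0 were called in GM and 9 at each DM stage. Over all genes those fits called 16 higher and 16 lower of 11656 tested in GM. They called 2827 higher and 2756 lower of 12016 at DM 24h, and 2778 and 2910 of 12148 at DM 48h. The member genes added at DM 24h were Actg1 (higher, 0.12), Tpm1, Tpm2 and Tpm3 (lower). Those added at DM 48h were Actb and Actg1 (higher), Tpm1 and Tpm4 (lower). The counts of member genes changed when either GM DMSO library was left out. Over all genes the number called in GM changed too without library B. The scale affects the split over all genes: in limma on log2(FPKM + 1), 74.5% of the calls in GM were higher, 62.1% at DM 24h and 67.4% at DM 48h, against 47.0%, 51.7% and 48.9% with edgeR and TMM.

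Exposure to PFI-3 lasted longer at later stages, so stage and length of exposure cannot be told apart in comparisons between stages. The PFI-3 effect was also compared between stages, as an interaction. From DM 24h to DM 48h it moved toward 0 for both muscle actins, by 0.82 ± 0.23 for Acta1 (edgeR adjusted p = 0.0356) and 0.82 ± 0.10 for Actc1 (0.000235). The mean FPKM of Acta1 grew 10.6-fold between these stages with DMSO and 19.3-fold with PFI-3, and that of Actc1 6.28-fold and 11.4-fold. In the model of all 12 libraries no such change was called for Tmod1 (-0.25 ± 0.10, 0.119) or Lmod2 (0.38 ± 0.21, 0.281). The count was 2 higher and 0 lower, against 7.12% and 4.97% of all genes. The Acta1 difference was not called when any 1 of the 8 DM libraries was left out, with adjusted p up to 0.146, and the Actc1 difference was called in all 12 refits. In the fit of the 8 DM libraries alone 8 member genes were called, against 2117 higher and 2037 lower of all 12371 genes tested there.

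Against GM, the PFI-3 effect at DM 24h was lower for Actc1 (-1.61 ± 0.34, edgeR adjusted p = 0.0427), the 1 gene called, against 1.78% of all genes higher and 1.59% lower. At DM 48h it was higher than in GM for Actb (0.57 ± 0.17, 0.0418), Actg1 (0.41 ± 0.12, 0.0403) and Tpm3 (0.34 ± 0.10, 0.0376) and lower for Tmod1 (-0.67 ± 0.10, 0.00132), against 8.25% of all genes higher and 6.29% lower. For Actb and Actg1 the sign of the PFI-3 difference was negative in GM (-0.33 ± 0.12 and -0.23 ± 0.08) and positive at DM 48h, though neither was called at either stage. The GM values rest on library A of GM DMSO: without it they were -0.05 and -0.08 and not called (0.677 and 0.482), and without library B they were -0.56 and -0.37 and called lower (2.69e-05 and 0.000802). The differences between DM 48h and GM were then 0.29 and 0.25 without library A, and 0.81 and 0.55 without library B, all called. Only the Tmod1 difference was called in each of the 12 refits that left out 1 library. The Actc1 call ended in 11 of those refits, Actb in 10, and Actg1 and Tpm3 in 9 each.

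The wider set of actin filament genes was read from 4 lists, described by counts beside the shares of all genes given above. Of 24 striated thin filament and Z-disc genes, DMSO cells had 18 higher and 1 lower at DM 24h than in GM. By DM 48h the numbers were 21 up and 2 down, with a median log2 fold change of 8.22 against 0.03 over all genes. In the fit of the 4 GM libraries only 13 of the 24 could be tested. The others passed the low-count filter through the DM libraries and could hardly be called lower than in GM. The size of that median rests on GM counts near 0, as for Actn2 (0 and 1 with DMSO) and Tnni2 (0 and 0). With PFI-3, none was higher at either DM stage, and 17 and then 18 were lower, with medians of -1.31 and -0.68 against 0.00 over all genes at both stages. Actn2, the Z-disc cross-linker alpha-actinin 2, had 74 and 87 counts at DM 24h with DMSO and 10 and 14 with PFI-3, and 4857 and 4595 against 1421 and 1371 at DM 48h. It fell at both stages, with log2 fold changes of -2.77 ± 0.23 (edgeR adjusted p = 6.43e-06) and -1.82 ± 0.09 (1.71e-07). Tnni2, fast troponin I, fell as well, with -2.20 and -1.59.

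A list of 36 actin filament genes outside striated muscle also holds Acta2, Actg2, Cnn1 and Tagln, read below as smooth muscle markers. Of these 36 genes, DMSO cells had 1 higher and 26 lower at DM 24h than in GM. By DM 48h there were 3 up and 27 down. Their median log2 fold change from GM to DM 48h was -1.05, and it was -0.86 without library A of GM DMSO. With PFI-3, 16 were lower in GM and none higher, and 0 were called in the fit of the 4 GM libraries. The median in GM was -0.34, and it was -0.13 without library A of GM DMSO and -0.46 without library B. At DM 24h 1 was higher and 4 lower, and at DM 48h 3 were higher and 2 lower. In fits of the libraries compared the numbers were 3 and 17, and 13 and 6. They also moved when either GM DMSO library was left out. Tmsb4x, which encodes the monomer-binding thymosin beta 4, had 7397 and 7248 counts at DM 24h with DMSO against 4360 and 4248 with PFI-3, and was lower at both DM stages (-0.81, adjusted p = 0.0302, and -0.81, 0.0255). Diaph3, a formin that elongates filaments, was lower at DM 24h (-0.63 ± 0.08, 0.000276) and higher at DM 48h (0.86 ± 0.10, 4.2e-05). Its DMSO level fell by 1.92 on the log2 scale between those stages.

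Of 15 tested genes for actin folding and modification, among them the subunits of the CCT chaperonin, 14 were lower at DM 24h than in GM with DMSO and 12 at DM 48h, where 2 were higher. With PFI-3, the model of 12 libraries called 3 lower and none higher at DM 24h, and none in GM or at DM 48h. The median in GM was -0.15, and it was -0.25 without library B of GM DMSO. Fits of the libraries compared gave 7 lower and 1 higher at DM 24h, and 3 lower at DM 48h. The chaperonin subunit Cct6a had 4419 and 4274 counts at DM 24h with DMSO and 3472 and 3432 with PFI-3 (-0.37 ± 0.10, edgeR adjusted p = 0.0169), and Cct8 changed by -0.30 ± 0.09 (0.0347).

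Of 12 tested transcriptional regulators of actin genes, DMSO cells had 9 higher and 3 lower at DM 24h than in GM. With PFI-3, 1 was lower in GM, 5 were lower at DM 24h and 6 by DM 48h, and 1 was higher at each DM stage. The GM count moved when either GM DMSO library was left out, and was 0 in the fit of the 4 GM libraries. The fit of the 4 DM 24h libraries gave 2 higher and 9 lower. Srf, which encodes serum response factor, was lower at DM 24h and DM 48h than in GM (-0.51, edgeR adjusted p = 0.000353, and -0.53, 0.00018), and so was its coactivator gene Mkl1 (-0.52 and -0.49). Neither was called with PFI-3 at any stage, nor was Mkl2. Srf had 1715 and 1886 counts at DM 24h with DMSO and 1616 and 1732 with PFI-3, which overlap.

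Of the regulators named by their level, Myog, which encodes myogenin, had 10687 and 10823 counts at DM 24h with DMSO and 5413 and 5251 with PFI-3, a log2 fold change of -1.05 (edgeR adjusted p = 2.4e-06), and fell by 0.62 at DM 48h (8.37e-05). Mef2c fell at both DM stages (-2.09, 0.0227, and -2.45, 2.35e-06). Its DM 24h fall rests on few counts, 22 and 12 with DMSO and 3 and 5 with PFI-3, near the floor of 3. At DM 48h it had 883 and 896 counts with DMSO and 171 and 169 with PFI-3. Tead4, a factor of the MCAT-binding family, fell at both (-1.15, 2.19e-05, and -0.58, 0.000807), as did Mef2d (-0.38 and -0.50). Mef2a was lower at DM 24h (-0.48, 0.000384) and higher at DM 48h (0.19, 0.0495). Tead1 was called lower in GM (-0.32, 0.0464), but not without library A of GM DMSO or in the fit of the 4 GM libraries. It was lower in cells at DM 48h (-0.38, 0.00983), as was Wwtr1 (-0.41, 0.00725). Yap1 was higher at DM 24h (0.25, 0.0175), and Myod1 was not called at any stage, with -0.36 at DM 24h (0.0574).

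The genes whose profiles lay nearest to Acta1 were found by Euclidean distance between log2(CPM + 1) profiles over the 12 libraries, each centred on its mean, among 10357 genes. The nearest were Ckm (distance 1.02), Tnnt3 (1.17), Myl1 (1.18), Mylpf (1.28) and Neb (1.33), which encode muscle creatine kinase, a troponin, a pair of myosin light chains and the filament ruler nebulin. Actc1 lay further off, at 4.15, and Lmod2 at 4.63. The added 1 flattens differences below 1 CPM, so this order depends in part on that offset. In GM with DMSO, Ckm had a mean of 0.0761 CPM and Actc1 had 0.862 and 0.443, against 10.1 and 4.13 for Acta1. Among the genes nearest to Actb were Lasp1 (0.318), Flna (0.379), Adss (0.385) and Grk6 (0.406), of which Lasp1 and Flna encode actin-binding proteins. Actg1 lay at 0.372 from Actb, with Tpm3 at 0.72 and Tpm4 at 0.896. The points share libraries and depth, so these distances are a description.

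Marker genes were read beside these results. The muscle markers Myod1, Myf5, Des, Myog, Myh3 and Ckm summed to between 236 and 277 FPKM in GM with DMSO, 1136 and 1152 at DM 24h, then 3603 and 3605 by DM 48h, against 713 to 723 and 2573 to 2686 with PFI-3 at the DM stages. This sum moves with the muscle actins, and its part in their change was not tested. Of the 9 cardiomyocyte genes, Nppa, Myl7 and Ryr2 had at most 2 counts in any library, Nppb, Tnni3 and Nkx2-5 at most 20, and Myh6 at most 208.78, while Gata4 had 270 to 449. Tnnt2, which developing skeletal muscle also uses, reached 18480. This list summed to 55.6 to 67.4 FPKM in GM with DMSO and 25.0 to 26.1 with PFI-3, then 301 to 319 against 97.2 to 109 at DM 24h, and 1220 to 1302 against 821 to 861 at DM 48h. Of the 6 smooth muscle genes, Myh11 had at most 5 counts and Cnn1 at most 443, while the highest counts of Acta2, Tagln, Actg2 and Smtn were 61019, 9592, 2748 and 2497. The list summed to 771 to 2095 FPKM in GM with DMSO and 487 to 776 with PFI-3, then 1083 to 1085 against 599.5 to 619 at DM 24h, and 1956 to 2000.3 against 1453 to 1480.2 at DM 48h. Both sums were lower with PFI-3 beside the muscle actins at the DM stages, and their part in that change was not tested. The endothelial, fat and neuron lists summed to under 1 FPKM in every library, and the blood list to at most 11.7.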

How the data were processed

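RNA of C2C12 cells was profiled in 12 libraries, 2 in each of 6 groups set by stage and treatment as the sample labels give them. The submitters' processing notes name HISAT, StringTie, Cufflinks, Bowtie, RSEM and DESeq2 and the mm10 build, with no versions or parameters. The authors deposited 1 table per library with, per the file headers, an expected count, an FPKM value (deposited in units scaled by transcript length and library size) and a transcript length per gene. The deposited length is used as a description in bases. A gene missing from a table was taken as 0: in 6963 cases a gene was listed in only 1 library of a pair, with a median count of 1. Per library, 93.3% to 93.7% of the deposited expected counts were whole (within 0.005).

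Expected counts were rounded and tested with edgeR 4.0.16 in R 4.3.3: quasi-likelihood test, TMM scaling, filterByExpr, 1 model of 6 groups over 12 libraries, and Benjamini-Hochberg adjustment over 12545 genes. Standard errors were derived from that test's F statistic. DESeq2 1.42.0 and limma 3.58.1 on log2(FPKM + 1), over 11582 genes that reached 1 FPKM in at least 2 libraries, were alternatives, with size factors, filters, the replicate letter as a block, fits of only the libraries compared, and each library left out. Shares of FPKM were compared by exact permutation within stages. Upstream windows and gene positions come from RefSeq tables of GRCm38.p6. At these depths a count of 3 per library served as the floor, which covers counting error only. The tests were checked on simulated counts.

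The genes and the lists were chosen with earlier results of these data known. Beside the 10 genes, the text names in each list the 2 called genes with the largest PFI-3 change at DM 24h and at DM 48h among those with a mean of at least 5 CPM, the regulators with that mean, and the 5 profiles nearest to Acta1 and to Actb, of which 1 is not reported here. Other genes are named as markers.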

Additional observations from a re-analysis of the deposited data

Results flagged for a closer look

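Among the 10 genes, edgeR's test of the difference itself found 7 cases in which the response to PFI-3 was unequal at a pair of stages. Length of exposure differed between stages as well, and cannot be told apart from stage. Between DM 48h and DM 24h the log2 effect differed by 0.82 for Acta1 (adjusted p = 0.0356) and by 0.82 for Actc1 (0.000235), with both effects negative at both stages and nearer 0 at DM 48h. Between DM 24h and GM it differed by -1.61 for Actc1 (0.0427), whose GM level rests on 11, 6, 8 and 10 counts. Between DM 48h and GM it differed by 0.57 for Actb (0.0418), 0.41 for Actg1 (0.0403), 0.34 for Tpm3 (0.0376) and -0.67 for Tmod1 (0.00132). The differences of Actc1 between the DM stages and of Tmod1 between DM 48h and GM were called in all 12 refits that left out 1 library. The other 5 were each lost in at least 8 of those refits.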

How the results depend on the processing

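The stage changes in DMSO cells kept 9 or 10 called genes under every alternative. No paired design is given by the labels: same-letter libraries deviated together in GM (r = 0.488) but not at DM 24h (0.018) or DM 48h (0.037). Adding the replicate block to the 12-library model changed the call or direction of 0 of 87 gene and summed values. That block is 1 term shared by all stages, so it cannot take up a letter effect seen in GM alone. In the fit of the 4 GM libraries the block moved the genes called over all genes from 32 to 741. Fits of only the libraries compared gave, for PFI-3, 0 called genes in GM (1 with the replicate block) and 9 at each DM stage (9 and 9 with the block). For the stage differences they gave 0 for DM 24h against GM (1 with the block) and 1 for DM 48h against GM (4 with the block). DM 48h against DM 24h had 8 (8 with the block). The 12-library model gave 3, 5, 5, 1, 4 and 2. Over all genes the fits without the block called 32, 5583, 5688, 79, 1037 and 4154, where the 12-library model called 1456, 2966, 3438, 423, 1824 and 1517. Limma on log2(FPKM + 1), log2(FPKM + 0.1) and log2(FPKM + 1) with no filter gave 4, 3 and 3 genes for DM 24h against GM. Over all genes these fits called 211, 139 and 154 higher and 401, 290 and 346 lower, of 11582, 11582 and 16288 tested. For DM 48h against DM 24h they gave 1, 1 and 1, against 1033, 947 and 952 higher and 634, 432 and 675 lower. Limma with no filter gave 1 for PFI-3 in GM, against 846 higher and 272 lower. With no low-count filter edgeR gave 2 for DM 24h against GM, against 252 higher and 205 lower of 16275. Values near 0 changed sign: PFI-3 on Actc1 in GM was -0.0042 with RLE size factors and -0.0038 with DESeq2, on Acta1 in GM 0.0026 in the GM libraries with the replicate block, 0.0984 and 0.137 in limma at pseudocounts of 1 and 0.1 and 0.0984 with no filter, on both muscle actins summed in GM 0.0080 with that block, and on Actb at DM 24h 0.0428 in each limma fit. The PFI-3 difference in the Tpm1 and Tpm2 share was 0.125 points as FPKM, -0.119 as counts and -0.227 over the DM stages, means of opposite differences at DM 24h and DM 48h. Leaving out 1 library at a time gave 2 to 7 called genes for PFI-3 in GM and 3 to 8 at DM 48h, and 0 to 5, 1 to 6 and 1 to 5 for the stage differences (DM 24h against GM, DM 48h against GM, DM 48h against DM 24h). It gave log2 values from -0.60 to 0.69 for Acta1, -0.41 to 0.54 for Actc1, -0.72 to 0.049 for Tpm2 and -0.58 to 0.67 for the summed muscle actins with PFI-3 in GM, and -0.022 to 0.013 for Actb at DM 24h. For Tpm1 with DMSO it gave -0.57 to 0.048 at DM 24h and -0.11 to 0.51 at DM 48h against GM, for the Tpm1 and Tpm2 share -0.812 to 1.06 points, and for the muscle share of actin -8.04 to -7.77 points (called without library B of GM DMSO, adjusted p = 0.037). The cause of these changes was not tested. The alternative that sums near-identical genes gives summed values and no count of called genes. Acta1, Actc1 and Lmod2 in GM rest on at most 129 counts, which limits what could be detected there.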
